A study of Mus musculus with 8 samples.

Results

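The genes described here are 10 effector and structural genes of tuft cells, listed by name for their known roles: Il25, Alox5, Alox5ap, Ptgs1, Chat, Dclk1, Avil, Rgs13, Sh2d6 and Hepacam2. They and the lists of related genes below were chosen with earlier results of these data known. Counts set against the share of all genes are therefore descriptive. All 10 were found among the 27179 Entrez genes counted in each library. RNA of thymic epithelial cells (TECs), which form the meshwork that selects developing T cells, was sequenced in 8 libraries from C57BL/6 mice. These were 1 library of cortical TECs (cTECs) and 1 of medullary TECs (mTECs) labelled as Mcl1 knock-out (KO), 2 of wild-type (WT) mTECs and 4 of WT cTECs. Mcl1 encodes an anti-apoptotic protein of the BCL-2 family. The labels name no promoter or Cre driver, no deleted part of the gene, no age and no sort markers, and do not say whether libraries come from separate animals. The p-values therefore reflect only how these libraries vary, which may be technical.

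Tuft cells are chemosensory epithelial cells that carry a bundled tuft of microvilli and use the signalling cascade of taste cells. In the thymus they lie in the medulla and depend on the transcription factor POU2F3. Across tissues they release the cytokine IL-25, make leukotrienes and prostaglandins from arachidonic acid, and express the enzyme that makes acetylcholine. The 10 genes cover these outputs and parts of the cytoskeleton, signalling and cell surface of the tuft cell.

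The libraries held 11516780 (KO mTEC) to 19171953 (WT mTEC 1) counts. Levels are in CPM, counts relative to the size of the library, after scaling by the trimmed mean of M values (TMM), and tests are those of edgeR's quasi-likelihood F test, with p-values adjusted over all 18163 genes tested. Mcl1 itself was at 8.23 CPM in KO cTEC, against 228, 302, 259 and 241 CPM in WT cTECs. It was at 78.7 CPM in KO mTEC, against 113 and 203 CPM in WT mTECs, below both but not called (log2 fold change -1.01 ± 0.36 SE, edgeR adjusted p = 0.538). The labels of the cortical libraries were only partly borne out by 8 markers of each population. The summed level of the mTEC markers (among them Aire, Fezf2 and Ccl21a) was 32.5 CPM in KO cTEC, 1890 CPM in KO mTEC, 1840 to 1940 CPM in WT mTECs and 1270 to 1410 CPM in WT cTECs, so that WT cTEC libraries held medullary transcripts. Much of the WT cTEC sums was Ccl21a, at 741, 671, 964 and 657 CPM, against 507 and 282 CPM in WT mTECs. It was called lower in WT mTECs than in WT cTECs, while 5 of the 8 mTEC markers were called higher. Aire alone, the regulator of self-antigens in mature mTECs, was at 0 CPM in KO cTEC, 457 CPM in KO mTEC, 338 and 554 CPM in WT mTECs, and 28.9 to 116 CPM in WT cTECs. The cTEC markers (among them Psmb11 and Prss16) summed to 8990 CPM in KO cTEC, 1790 CPM in KO mTEC, 1400 to 1650 CPM in WT mTECs and 4530 to 9270 CPM in WT cTECs.

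**Figure D1:**
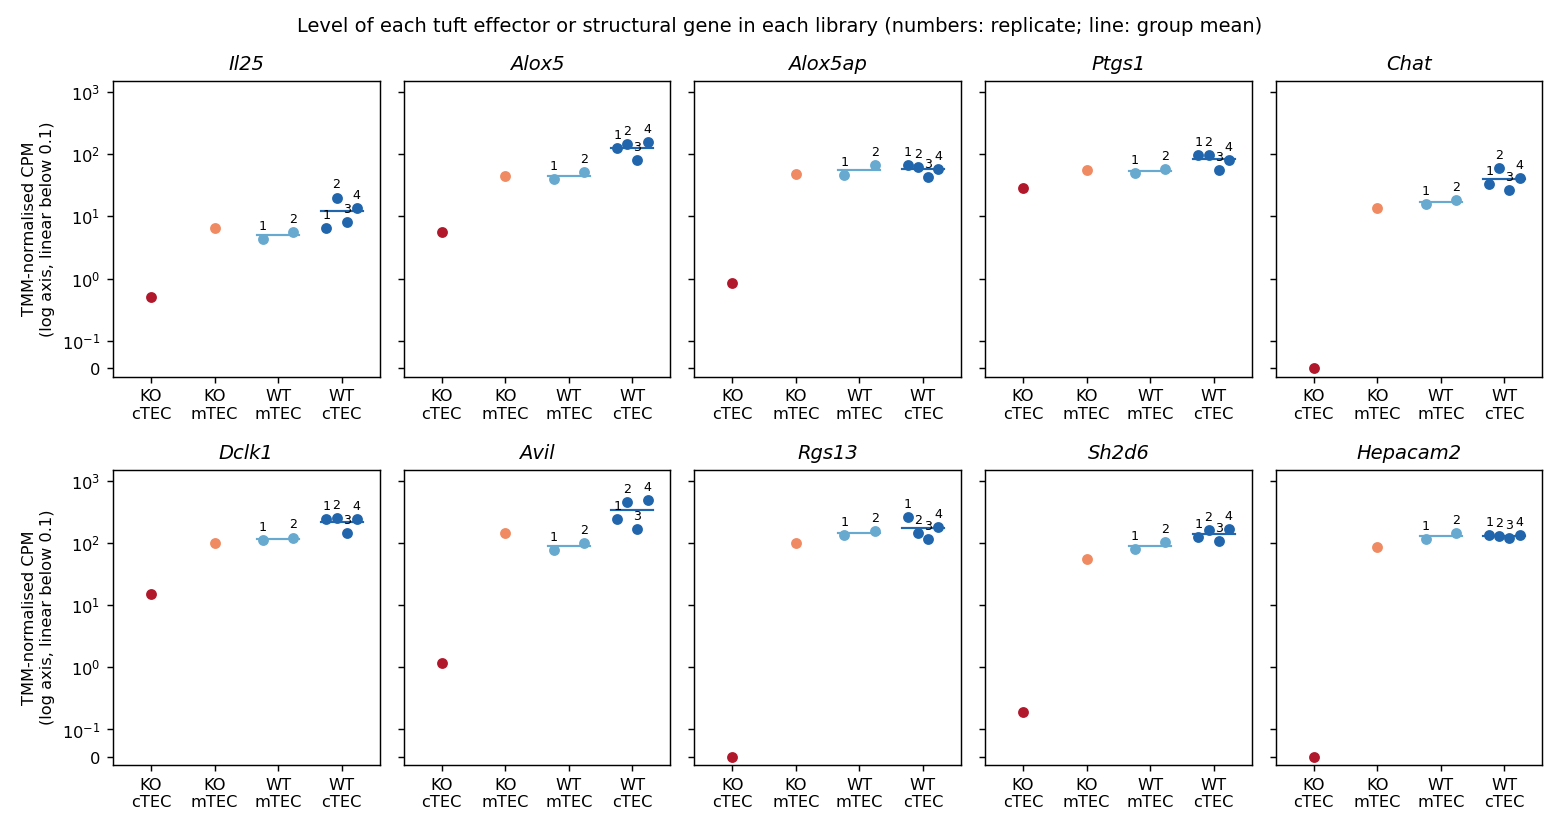
Level of each of the 10 genes in each library, in TMM-normalised CPM on a log axis that is linear below 0.1. Points are libraries, numbered by replicate within the WT groups, and lines are WT group means. KO cTEC lies below every other library for all 10 genes, at 0 for Chat, Rgs13 and Hepacam2 and highest for Ptgs1 (28.9 CPM), while KO mTEC lies near the WT mTECs.

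KO cTEC was set against WT cTECs as labelled. The mTEC markers summed to 32.5 CPM in KO cTEC and to 1270 to 1410 CPM in WT cTECs. The contrast is therefore not of cortical cells alone. All 10 genes were lower in KO cTEC, where 12.4% of all genes tested were called lower. The KO library also lay under all 4 WT cTEC libraries for all 10, against 32.9% of all genes. The size of the loss spanned a wide range: 3 genes had no count, another 3 kept under 2% of the WT mean, and Ptgs1 kept 34.7%. The median log2 fold change of the 10 was -7.13, or -6.89 with the 3 genes without a count at their bound, against -0.14 over all genes tested. In bulk RNA, fewer cells of a type and less RNA per cell cannot be told apart.

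The genes without a count were Chat, Rgs13 and Hepacam2. Their folds are lower bounds, taken against 3 counts in the KO library (0.193 CPM), a limit that covers counting error only. Rgs13 encodes a regulator that speeds the shut-off of G proteins (Entrez 246709, chromosome 1, 144137386 to 144177372). It was at 0 CPM in KO cTEC, against 263, 144, 117 and 178 CPM in WT cTECs, and was at least 911-fold lower (adjusted p = 0.000187). The WT cTEC libraries differed among themselves by 2.25-fold for this gene, far less than the gap to KO. Hepacam2 encodes an adhesion molecule of the immunoglobulin superfamily (Entrez 101202, chromosome 6, 3457089 to 3498322). It was at 0 CPM in KO cTEC, against 132, 130, 120 and 132 CPM in WT cTECs, and was at least 668-fold lower (adjusted p = 6.4e-05). Of the 10 genes it had the smallest spread among WT cTECs, with a coefficient of variation of 4.31%. Chat encodes choline acetyltransferase, the enzyme that makes acetylcholine (Entrez 12647, chromosome 14, 32408203 to 32465909). It was at 0 CPM in KO cTEC, against 33.3, 59, 26.6 and 40.7 CPM in WT cTECs, and was at least 207-fold lower (adjusted p = 0.000319).

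The promoter windows of these 3 genes are shown because they share the absence of counts in KO cTEC. Each runs from 250 bases before to 50 after a transcription start in RefSeq (GRCm38.p6), on the minus strand. They lie at chr1:144177323-144177622 for Rgs13, chr6:3494449-3494748 for Hepacam2 and chr14:32465860-32466159 for Chat. The Hepacam2 window is at a start inside the gene, which on that strand begins at 3498322, and the sequence there was not scanned. Capitals mark matches, on either strand, to the octamer bound by POU factors (ATGCAAAT), to its 7-base parts ATGCAAA and TGCAAAT, or to the TATA element TATAAA.
Rgs13: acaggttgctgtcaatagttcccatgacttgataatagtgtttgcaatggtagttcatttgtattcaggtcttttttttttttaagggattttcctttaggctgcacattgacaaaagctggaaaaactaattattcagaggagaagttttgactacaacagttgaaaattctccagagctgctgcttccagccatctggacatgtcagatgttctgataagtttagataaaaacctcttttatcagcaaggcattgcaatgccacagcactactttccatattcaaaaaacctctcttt
Hepacam2: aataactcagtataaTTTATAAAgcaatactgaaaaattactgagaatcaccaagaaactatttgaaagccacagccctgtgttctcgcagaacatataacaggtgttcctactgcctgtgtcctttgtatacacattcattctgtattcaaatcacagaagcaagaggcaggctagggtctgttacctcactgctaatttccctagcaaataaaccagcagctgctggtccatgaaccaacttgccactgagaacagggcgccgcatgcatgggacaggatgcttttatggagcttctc
Chat: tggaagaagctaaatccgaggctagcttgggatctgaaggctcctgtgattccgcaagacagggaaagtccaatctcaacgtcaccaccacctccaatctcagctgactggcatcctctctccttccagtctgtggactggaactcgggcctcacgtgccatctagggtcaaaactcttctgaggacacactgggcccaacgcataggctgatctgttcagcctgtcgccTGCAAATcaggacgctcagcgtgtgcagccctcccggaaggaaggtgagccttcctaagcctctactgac

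Among the 9 windows that RefSeq gives for 8 of the genes (all but Il25 and Alox5ap), 0 held the full octamer, which 1.74% of all 32851 windows hold. The part TGCAAAT occurred in the window of Chat (4.02% of all windows) and the part ATGCAAA in that of Avil (4.63% of all windows). TATAAA occurred in the window of Hepacam2, as overlapping matches on both strands, and in 13.6% of all windows. The Rgs13 window held none of the 4 motifs and no CG pair. The windows of the 8 genes held a median of 6 CG pairs, against 7 over all windows. These are matches of letters only.

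Avil and Sh2d6 were nearly absent from KO cTEC, and Alox5ap was close to absent. Avil encodes advillin, an actin-binding protein of the villin and gelsolin family (Entrez 11567, chromosome 10, 127000065 to 127020994). It was at 1.16 CPM (18 counts) in KO cTEC, against 243, 447, 166 and 493 CPM in WT cTECs, and fell by 8.18 on the log2 scale (SE 0.93, edgeR adjusted p = 0.000865). It kept 0.343% of the WT mean, with a 95% Poisson interval of the KO count from 0.203 to 0.542%. In the GENCODE annotation 165 of its 3398 exon bases also lie in exons of Tsfm on the other strand, so a few of its counts may belong to that gene. The same limit holds for Alox5ap (189 of 1420 exon bases shared with Gm19719) and Ptgs1 (148 of 3884 with Gm43621). It also holds for Dclk1 (of 15296, 27 with Gm21954 and 87 with Gm42609). Sh2d6 encodes a protein with an SH2 domain (Entrez 71130, chromosome 6, 72513641 to 72534206). It was at 0.193 CPM (3 counts) in KO cTEC, against 123, 163, 108 and 166 CPM in WT cTECs, which is 0.138% of the WT mean (95% Poisson interval 0.0284 to 0.403%, adjusted p = 9.84e-05).

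The lipid mediator genes were lower by very different amounts. Alox5ap encodes the protein that hands arachidonic acid to 5-lipoxygenase (Entrez 11690, chromosome 5, 149265004 to 149288153). It was at 0.835 CPM (13 counts) in KO cTEC, against 66.3, 62, 43 and 58.2 CPM in WT cTECs, and fell by 6.09 on the log2 scale (SE 0.48, adjusted p = 0.000197). Alox5 encodes 5-lipoxygenase itself, the first enzyme of leukotriene synthesis (Entrez 11689, chromosome 6, 116410071 to 116461178). It was at 5.53 CPM (86 counts) in KO cTEC, against 126, 146, 80 and 156 CPM in WT cTECs, and fell by 4.52 (SE 0.48, adjusted p = 0.000677), keeping 4.35% of the WT mean. Ptgs1 encodes cyclooxygenase 1, which starts prostaglandin synthesis and is made by many cell types (Entrez 19224, chromosome 2, 36216742 to 36258593). It was at 28.9 CPM (449 counts) in KO cTEC, against 96.9, 98.5, 55.9 and 81.6 CPM in WT cTECs, and fell by 1.53 (SE 0.35, adjusted p = 0.0193). It kept 34.7% of the WT mean (95% Poisson interval 31.6 to 38%), and its 95% interval on the log2 scale, -2.32 to -0.73, lay above those of the other 6 genes with a count in KO cTEC.

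The cytokine gene and the kinase gene lay between these extremes. Il25 encodes IL-25, through which tuft cells act on group 2 innate lymphoid cells (Entrez 140806, chromosome 14, 54932695 to 54935837). It was at 0.514 CPM (8 counts) in KO cTEC, against 6.42, 20.1, 8.04 and 13.7 CPM in WT cTECs, and fell by 4.53 (SE 0.91, adjusted p = 0.0117). With so few counts, the share kept, 4.26%, had a 95% Poisson interval from 1.84 to 8.4%. Dclk1 encodes a doublecortin-like kinase bound to microtubules and is a common tuft cell marker in the mouse (Entrez 13175, chromosome 3, 55242303 to 55539068). It was at 15.2 CPM (237 counts) in KO cTEC, against 241, 251, 146 and 240 CPM in WT cTECs, and fell by 3.85 (SE 0.39, adjusted p = 0.000513), keeping 6.95% of the WT mean. In limma-voom the calls of Rgs13, Chat, Avil and Il25 were lost (adjusted p = 0.0742, 0.0795, 0.057 and 0.154), and the other 6 held.

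**Figure D2:**
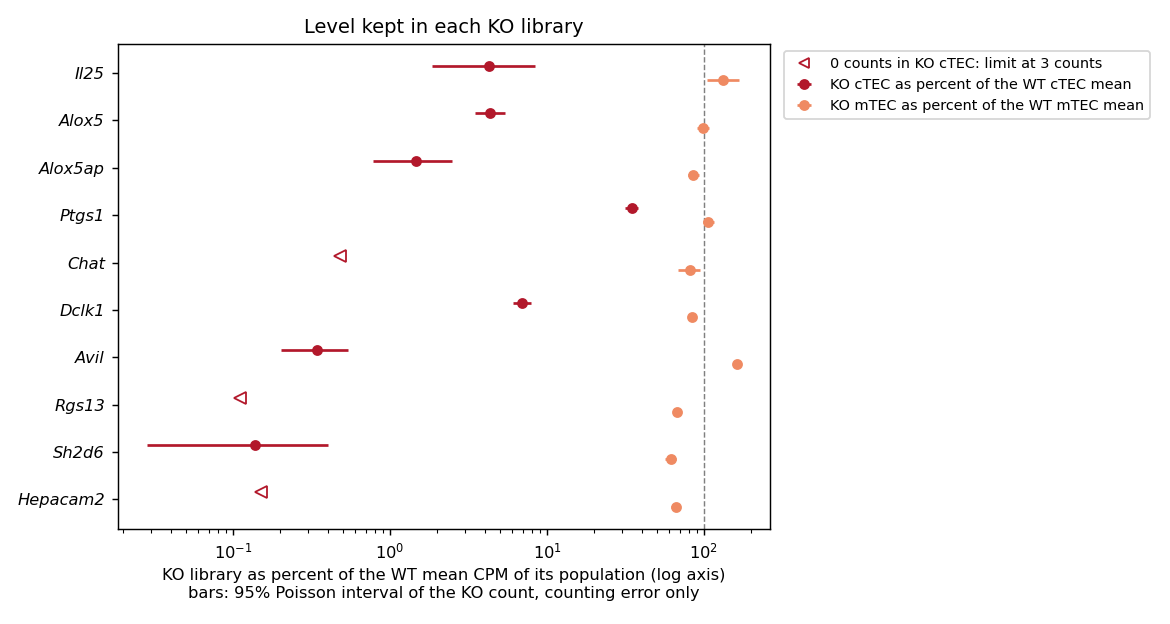
Level of each gene in a KO library as percent of the WT mean of the same population, on a log axis. Bars are 95% Poisson intervals of the KO count and leave out the spread of the WT libraries, and open triangles mark the limit of 3 counts for genes with 0 counts. In cTECs the values spread from under 1% to 34.7% (Ptgs1), and in mTECs from 61.4% (Sh2d6) to 163% (Avil).

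Other genes of the same pathways were also lower in KO cTEC. Of 12 other tuft cell genes 12 were lower, of 7 taste transduction genes 5, and of 7 tuft cell regulators 5, while no gene of these lists was higher. With genes without a count at their bound, the median log2 fold change was -4.98 for the other tuft cell genes, -9.39 for the taste genes and -2.9 for the regulators. Of the taste genes, the channel gene Trpm5 and the G protein gene Gnat3 had no count in KO cTEC, which puts their falls at least at 1180-fold and 1410-fold. Among the regulators, Spib was at 1.22 CPM in KO cTEC and 252 CPM in WT cTECs (log2 fold change -7.68 ± 0.64 SE, adjusted p = 0.000228), and Gfi1b and Hmx3 had 0 counts. Pou2f3, the master regulator of tuft cells, was at 21.9 CPM in KO cTEC, against a mean of 72.9 CPM in WT cTECs, a fall of 1.74 on the log2 scale (adjusted p = 0.00615). Sox9 was not called (log2 fold change 0.21), nor was the calcium channel gene Itpr3 (-0.07). Of 17 further eicosanoid enzyme genes 9 were lower and none higher, with a median of -2.87. Alox15 was at 0.964 CPM in KO cTEC and 178 CPM in WT cTECs (-7.52 ± 0.55, adjusted p = 0.000159). The leukotriene C4 synthase gene Ltc4s and the prostaglandin D synthase gene Hpgds, which also stand among the 12 other tuft cell genes, were lower by 4.68 and 4.58 on the log2 scale.

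The remaining lists held fewer calls or calls in both directions. Of 8 cholinergic genes tested 1 was lower, the collagen tail gene Colq of acetylcholinesterase (-2.24 ± 0.33, adjusted p = 0.0028), a share near the 12.4% of all genes called lower. The count was 2 in DESeq2 and without WT cTEC 1, 3 or 4, and 5 with WT cTEC 1 alone. The partners of Chat in nerve terminals, the choline transporter gene Slc5a7 and the vesicular transporter gene Slc18a3, averaged 0.566 and 0.609 CPM in WT cTECs and had 0 counts in KO cTEC. Of 9 genes of the IL-25 and type 2 axis, the IL-25 receptor gene Il17rb was lower (-5.17 ± 0.48, adjusted p = 0.000355) and the alarmin gene Il33 higher (3.29 ± 0.33, adjusted p = 0.00049), at 665 CPM in KO cTEC against 67.8 CPM in WT cTECs. Il17rb also stands among the other tuft cell genes counted above. DESeq2 called 4 of these 9 lower and 1 higher. Of 12 genes of the villin family and the brush border 3 were lower and 2 higher, where 5.1% of all genes were called higher. Without WT cTEC 3 the list had 3 lower and 0 higher, and in limma-voom 1 lower and 2 higher. Vil1, which encodes villin, had 2 counts in KO cTEC and averaged 19.6 CPM in WT cTECs (adjusted p = 0.000783, and 0.122 in limma-voom). Espn, which encodes an actin-bundling protein of microvilli, fell by 4.6 (SE 0.45, adjusted p = 0.000433). Of 12 other members of the gene families of Dclk1, Rgs13, Sh2d6 and Hepacam2 that were tested, 5 were lower, among them Rgs5 (-5.06 ± 0.43, adjusted p = 0.000247). In limma-voom 2 of the 7 regulators, 3 of the 7 taste genes and 5 of the 17 eicosanoid genes were called lower, without Gfi1b and Hmx3 (adjusted p = 0.0786 and 0.0981).

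Markers of several other cell types were also lower in KO cTEC, and their part in the result was not tested. All 8 mTEC markers were lower, with Aire at 0 counts. Of 15 dendritic cell and macrophage markers, 12 of which were tested, 6 were lower, and the list summed to 25.3 CPM in KO cTEC, against 231 to 324 CPM in WT cTECs. The 7 neuroendocrine markers summed to 1.29 CPM in KO cTEC, against 44.5 to 237 CPM in WT cTECs, with 5 of 6 tested lower. The 11 granulocyte and mast cell markers were all at 0 counts in KO cTEC, with 3 of 10 tested lower. They summed to 13.3 to 37.7 CPM in WT cTECs, where 3 to 5 of the 11 were also at 0 counts in each library. By contrast the 7 mesenchymal markers summed to 1050 CPM in KO cTEC, against 714 to 922 CPM in WT cTECs, with 2 higher, and the 8 cTEC markers had 3 higher and none lower. The 4 erythroid genes summed to 408 CPM in KO cTEC, against 16.1 to 70.4 CPM in WT cTECs. Immediate-early genes, which cell handling induces, summed to 6080 CPM in KO cTEC, against 2960, 27500, 19300 and 22900 CPM in WT cTECs 1 to 4. Their part in the result was not tested either.

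**Figure D3:**
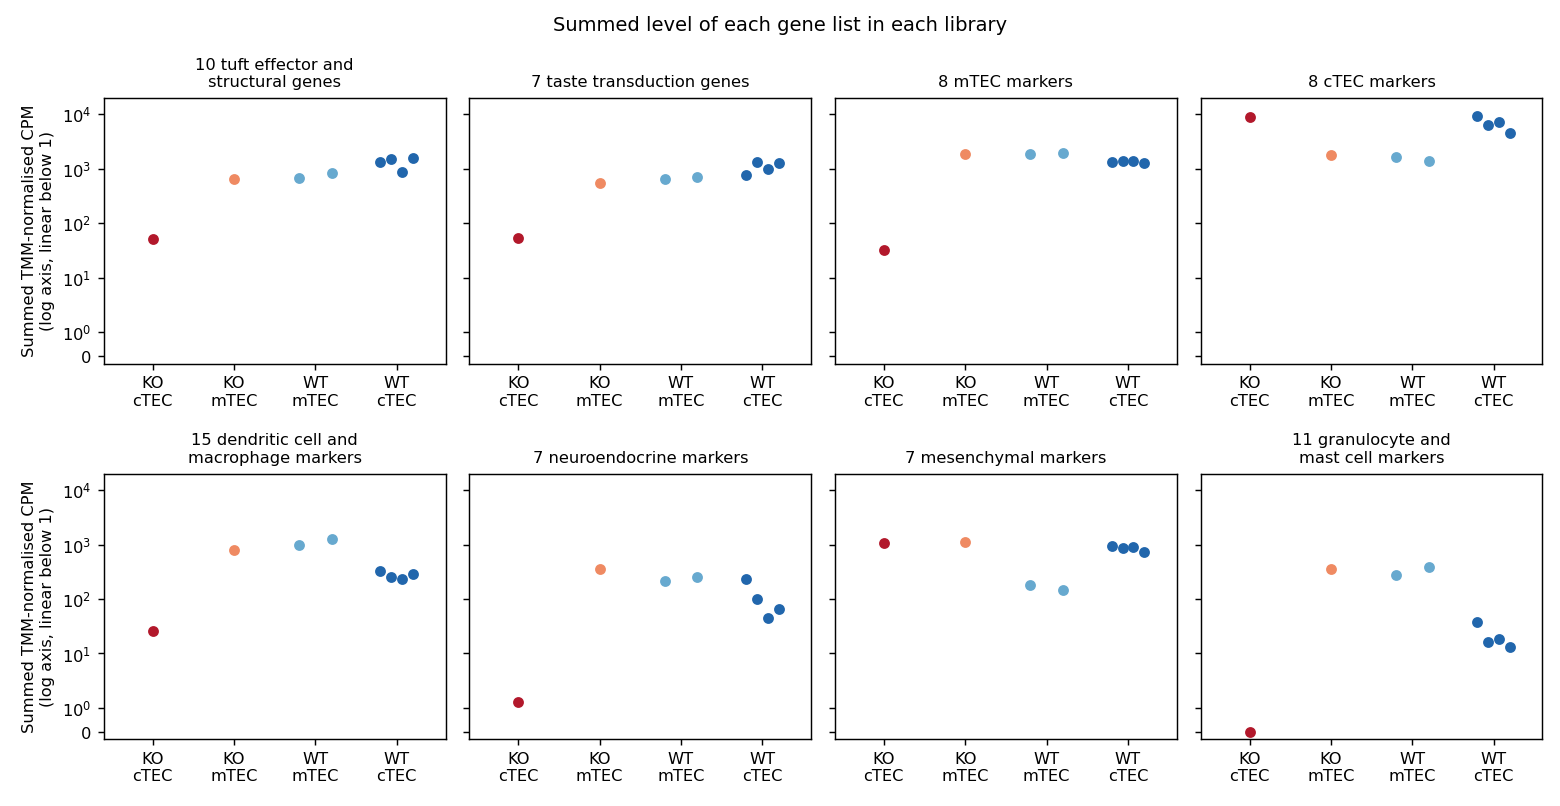
Summed TMM-normalised CPM of the 10 genes, of the taste transduction genes and of markers of other cells in each library, on a log axis that is linear below 1. In KO cTEC the 10 genes sum to 52.31 CPM, the taste genes to 53.3 CPM, the mTEC markers to 32.5 CPM and the neuroendocrine markers to 1.29 CPM, while cTEC and mesenchymal markers lie near or above WT cTEC.

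The comparison of KO with WT mTECs was made in the same way for the libraries labelled as medullary. None of the 10 genes was called in edgeR, where 0% of all genes were called, and 1 had an unadjusted p under 0.05. DESeq2 and limma-voom also called 0 of the 10. KO mTEC lay under both WT mTEC libraries for 5 genes, against 41.7% of all genes, and over both for Avil and Il25, against 38.6% of all genes. The gene with an unadjusted p under 0.05 was Hepacam2, at 86.4 CPM in KO mTEC, against 117 and 145 CPM in WT mTECs (log2 fold change -0.60 ± 0.22, adjusted p = 0.542). Sh2d6 and Rgs13 had values on the same side. Sh2d6 was at 55.7 CPM in KO mTEC, against 79 and 102 CPM in WT mTECs. Rgs13 was at 98.3 CPM in KO mTEC, against 136 and 154 CPM in WT mTECs.

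Values for Avil lay on the other side, at 145 CPM in KO mTEC, against 77.3 and 101 CPM in WT mTECs, a log2 fold change of 0.70 with a 95% interval from -0.59 to 1.99. Il25 was at 6.6 CPM in KO mTEC, against 4.35 and 5.6 CPM in WT mTECs (95% interval -1.19 to 2.01). Chat was at 13.8 CPM in KO mTEC, against 16 and 18.1 CPM in WT mTECs, and Dclk1 was at 98.5 CPM, against 112 and 122 CPM. For the lipid mediator genes the KO library lay within the range of WT mTECs. Alox5 was at 44.5 CPM in KO mTEC, against 39.2 and 50.9 CPM in WT mTECs. Alox5ap was at 48.2 CPM in KO mTEC, against 46.4 and 66 CPM in WT mTECs. Ptgs1 was at 56.6 CPM in KO mTEC, against 49.1 and 57.5 CPM in WT mTECs. With 1 KO library these intervals leave room for changes of 1.5-fold or more in most genes, so that small differences were not detectable. Of 81 genes in the 8 lists of related genes, edgeR and limma-voom called 0 in this comparison, 5 had an unadjusted p under 0.05, and DESeq2 called 1 gene of the IL-25 and type 2 list and 1 of the villin list. Mesenchymal markers summed to 1130 CPM in KO mTEC, against 147 to 179 CPM in WT mTECs, and erythroid genes to 953 CPM in KO mTEC, against 29.7 to 63.8 CPM in WT mTECs. Their part in the values of the 10 genes was not tested.

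The KO effects differed between the populations for most of the genes. They also differed for Mcl1 itself, which kept 3.19% of the WT mean in KO cTEC and 49.8% in KO mTEC (difference 3.96 ± 0.5 on the log2 scale, edgeR adjusted p = 0.00277). The difference, KO effect in mTECs minus KO effect in cTECs, was above 0 for all 10 and called for 9, where 6.16% of all genes were called higher in this way. It was 8.74 ± 0.64 for Sh2d6 (adjusted p = 0.000342), 8.88 ± 1.03 for Avil (0.00179), 5.87 ± 0.55 for Alox5ap (0.000852) and 4.50 ± 0.57 for Alox5 (0.00277) on the log2 scale. It was 4.94 ± 1.09 for Il25 (adjusted p = 0.0331) and 3.6 ± 0.47 for Dclk1 (0.00307). For Rgs13, Hepacam2 and Chat it was called (adjusted p = 0.000745, 0.000154 and 0.00123), and its fitted size is no bound, because KO cTEC had 0 counts. For Ptgs1 it was 1.61 ± 0.47 and did not pass (adjusted p = 0.0871), and it passed without WT cTEC 3 (adjusted p = 0.0296) and in DESeq2 (0.022). The call of Il25 was lost without WT mTEC 1, WT mTEC 2 or WT cTEC 4 (adjusted p = 0.11, 0.087 and 0.0529). Limma-voom called only Dclk1 of the 10.

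The comparison of WT mTECs with WT cTECs asked how the genes are spread over the populations without the knockout. Although thymic tuft cells are medullary, 9 of the 10 genes had a fold change below 0 in WT mTECs, and 4 were called lower (Avil, Alox5, Chat and Dclk1), where 13.9% of all genes were called lower. Both WT mTEC libraries lay under all 4 WT cTEC libraries for 6 genes, against 24.7% of all genes. The median log2 fold change of the 10 was -0.77, against 0.06 over all genes. Avil averaged 89.1 ± 16.7 CPM in WT mTECs (SD, n = 2) and 337 ± 157 CPM in WT cTECs (SD, n = 4), a log2 fold change of -1.92 ± 0.45 (SE, edgeR adjusted p = 0.017). Alox5 averaged 45.1 ± 8.28 CPM in WT mTECs and 127 ± 33.7 CPM in WT cTECs (-1.50 ± 0.29, adjusted p = 0.00876). The coefficient of variation among WT cTECs was 46.7% for Avil and 26.5% for Alox5, but for both genes all WT cTEC values lay above the WT mTEC values. Chat averaged 17.1 ± 1.49 CPM in WT mTECs and 39.9 ± 14 CPM in WT cTECs (-1.22 ± 0.33, adjusted p = 0.0286). Dclk1 averaged 117 ± 7.52 CPM in WT mTECs and 219 ± 49.1 CPM in WT cTECs (-0.91 ± 0.24, adjusted p = 0.0251).

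The other 6 genes did not pass. Il25 averaged 4.97 ± 0.887 CPM in WT mTECs and 12.1 ± 6.19 CPM in WT cTECs (-1.28 ± 0.52, adjusted p = 0.104). Ptgs1 and Sh2d6 had log2 fold changes of -0.64 ± 0.25 and -0.62 ± 0.23 (adjusted p = 0.0861 and 0.0738). The remaining 3 had levels close to those of WT cTECs. Hepacam2 averaged 131 ± 19.9 CPM in WT mTECs and 129 ± 5.54 CPM in WT cTECs, with a 95% interval of the log2 fold change from -0.32 to 0.37. Alox5ap averaged 56.2 ± 13.9 CPM in WT mTECs and 57.4 ± 10.2 CPM in WT cTECs, with an interval from -0.55 to 0.49, and the sign of its fold change turned in 6 other settings. Rgs13 averaged 145 ± 12.9 CPM in WT mTECs and 176 ± 63.5 CPM in WT cTECs, with an interval from -0.96 to 0.41. Without WT mTEC 1, and likewise without WT mTEC 2, none of the 10 was called, with adjusted p for Avil, Alox5, Chat and Dclk1 from 0.066 to 0.177. Without WT cTEC 2 the call of Dclk1 was lost (adjusted p = 0.0579).

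**Figure D4:**
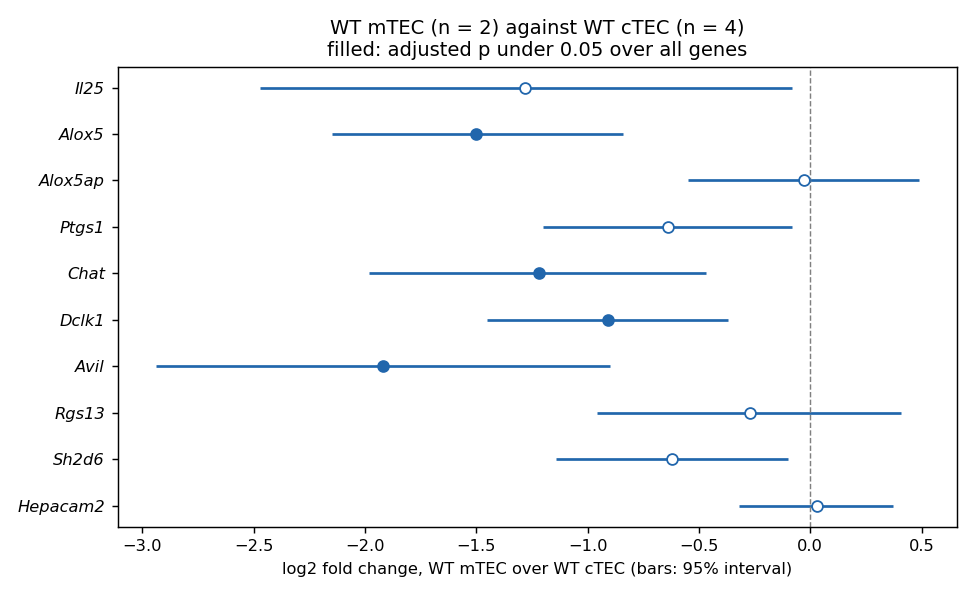
Log2 fold change of each gene in WT mTECs (n = 2) over WT cTECs (n = 4), with 95% intervals from the edgeR fit. Filled points have an adjusted p under 0.05 over all genes. Avil has the lowest value (-1.92), and the intervals of Alox5ap, Rgs13 and Hepacam2 span 0.

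Related genes did not follow 1 direction between the WT populations. Of 17 eicosanoid enzyme genes 5 were higher in WT mTECs and none lower, where 13.2% of all genes were called higher. The prostaglandin D synthase gene Ptgds was at 128 CPM in WT mTECs and 8.44 CPM in WT cTECs (3.93 ± 0.46, adjusted p = 0.0017), and the phospholipase gene Pla2g4a, which frees arachidonic acid, was higher by 1.65 ± 0.42 (adjusted p = 0.0245). Of 7 taste transduction genes 3 were lower, with Trpm5 at 73.9 CPM in WT mTECs and 228 CPM in WT cTECs (-1.62 ± 0.28, adjusted p = 0.0058). Of the 12 other tuft cell genes 4 were lower, and Kctd12 was higher (1.58 ± 0.14, adjusted p = 0.000933). Of 9 IL-25 and type 2 genes 2 were lower and 3 higher, with Il33 at 8.17 CPM in WT mTECs and 67.8 CPM in WT cTECs (-3.05 ± 0.36, adjusted p = 0.0017). Of 12 family relatives tested 4 were higher, among them Blnk, an adaptor of the same kind as Sh2d6 (2.09 ± 0.19, adjusted p = 0.000935). Of 12 villin family and brush border genes 4 were lower and 1 higher. Of 8 cholinergic genes 1 was lower, and of 7 regulators 1 was lower, shares near the 13.9% of all genes called lower. These counts rest on single libraries. Without WT mTEC 1, and likewise without WT mTEC 2, the calls were 1 higher of the eicosanoid genes, 0 of the taste genes and of the regulators, 1 higher of the other tuft cell genes, 1 lower of the IL-25 and type 2 genes and 2 higher of the family relatives. The villin list had 2 lower and 1 higher without WT mTEC 1 and 0 calls without WT mTEC 2. Without WT cTEC 1 the taste genes had 5 lower, and the cholinergic genes 1 lower and 3 higher, while without WT cTEC 4 the cholinergic genes had 2 lower. Without WT cTEC 2 the counts were 3 for the eicosanoid genes, 1 for the taste genes, 2 for the other tuft cell genes, 2 for the relatives and 0 for the regulators, and without WT cTEC 3 they were 3 for the eicosanoid genes and 2 for the relatives. Trpm5 lost its call without WT mTEC 1 or 2 (log2 fold changes -1.5 and -1.75), as did Pla2g4a (1.7 and 1.61). Pla2g4a also lost its call without WT cTEC 2 or 3 (edgeR adjusted p = 0.0628 and 0.0558). Immediate-early genes, which cell handling induces, summed to 1280 to 2310 CPM in WT mTECs and 2960, 27500, 19300 and 22900 CPM in WT cTECs 1 to 4, and their part in these differences was not tested. Of 10 tested granulocyte and mast cell markers 8 were higher in WT mTECs, with sums of 275 to 379 CPM in WT mTECs and 13.3 to 37.7 CPM in WT cTECs. In the same comparison 6 of 12 tested dendritic cell and macrophage markers were higher, with sums of 960 to 1240 CPM in WT mTECs and 231 to 324 CPM in WT cTECs. Lyz2 alone was at 741 and 995 CPM in WT mTECs 1 and 2. Which cells carried the transcripts of these 2 marker lists, and their part in the differences, was not tested.

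Within WT cTECs the 10 genes shared a low library but not a high one. WT cTEC 3 was the lowest library for 9 of the 10, the exception being Il25, which was lowest in WT cTEC 1. The levels of Il25, Avil, Chat, Alox5 and Sh2d6 were higher in WT cTECs 2 and 4 than in WT cTECs 1 and 3, on average by 2.34-fold for Il25, 2.30-fold for Avil and 1.67-fold for Chat. Rgs13, Hepacam2 and Alox5ap were instead highest in WT cTEC 1. The coefficient of variation over WT cTECs was 51.3% for Il25, 46.7% for Avil and 36.1% for Rgs13, against 4.31% for Hepacam2. Per library, the 10 genes held 0.00532% of all counts in KO cTEC, 0.0628% in KO mTEC, 0.0641 and 0.0835% in WT mTECs, and 0.0875 to 0.155% in WT cTECs.

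Levels can be compared between genes only per length, as CPM divided by the deposited gene length in kilobases. On this scale Rgs13, Avil and Sh2d6 were highest in WT cTECs, at 117 ± 42.4, 111 ± 51.9 and 109 ± 22.6 CPM per kb (SD, n = 4), and did not differ beyond their spread. Alox5ap (67.2 ± 11.9), Hepacam2 (57.6 ± 2.48) and Alox5 (45 ± 11.9 CPM per kb) followed, and Ptgs1 (29 ± 6.89) stood below them. Dclk1 (16.9 ± 3.78), Chat (14.2 ± 4.98) and Il25 (11.3 ± 5.81 CPM per kb) were the lowest and overlapped. Dclk1, with a length of 12995 bases, thus ranked 2nd by CPM and 8th per length. Its rank per length rests on the deposited length, and which of its transcripts were expressed was not tested. In WT mTECs Rgs13 was also highest (97.1 ± 8.63 CPM per kb, SD, n = 2), and Il25 was lowest at 4.67 ± 0.833 CPM per kb. In KO mTEC Rgs13 was first (65.7 CPM per kb) and Chat last (4.92 CPM per kb). In KO cTEC the order was another, with Ptgs1 first at 10.1 CPM per kb, then Alox5 at 1.96 and Dclk1 at 1.17 CPM per kb.

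**Figure D5:**
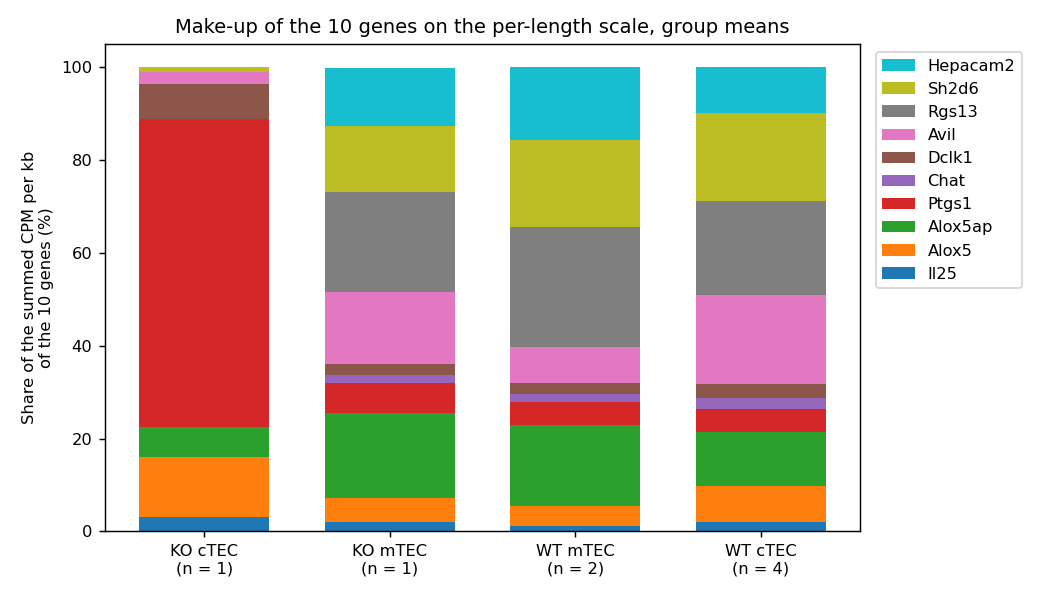
Share of each gene in the summed CPM per kb of the 10 genes, from group means (1 KO cTEC, 1 KO mTEC, 2 WT mTEC and 4 WT cTEC libraries). Ptgs1 makes up 66.3% in KO cTEC, 6.45% in KO mTEC, 4.95% in WT mTECs and 5.02% in WT cTECs.

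The summed level per kb of the 10 genes over that of the 7 taste transduction genes was 1.64 in KO cTEC, 0.742 in KO mTEC, 0.758 and 0.797 in WT mTECs, and 1.36, 0.946, 0.708 and 0.847 in WT cTECs 1 to 4. The ratio of KO mTEC lay just under both WT mTEC values and within the range of WT cTECs. The ratio of KO cTEC lay above all others, at summed levels of 15.2 and 9.27 CPM per kb. Ptgs1 made up 66.3% of the sum per kb of the 10 genes in that library. Before division by length, Itpr3 (30 CPM) and Plcg2 (21.9 CPM) made up nearly all of the 53.3 CPM of the taste genes. The shares of single taste genes per kb were not taken.

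Over the 8 libraries the log2 level of each gene followed the mean of the other 9, with Pearson's r from 0.858 for Ptgs1 to 0.997 for Chat. These values share the same libraries and rest largely on KO cTEC against the rest. Outside the 10, the genes (average log2 CPM 3 or more) whose log2 levels were most like the mean of the 10 over the 8 libraries included Trpm5 (r = 0.9986), Sh2d7 (0.9982), 1700003M07Rik (0.9979), Lrmp (0.9978), Pik3cg (0.9971), Vav1 (0.9961) and Inpp5d (0.9945). Trpm5, Sh2d7, Lrmp and Vav1 stand in the lists of tuft cell genes used here. Pik3cg encodes a catalytic subunit of phosphoinositide kinase and Inpp5d an inositol phosphatase, both well known from blood cells. Pik3cg was at 0 CPM in KO cTEC, 28.9 CPM in KO mTEC, 27.7 CPM in WT mTECs and 67 CPM in WT cTECs. Inpp5d was at 1.16 CPM in KO cTEC, 32 CPM in KO mTEC, 29.7 CPM in WT mTECs and 51.4 CPM in WT cTECs.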

How the data were processed

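Polyadenylated RNA of 8 libraries was measured. Per the labels' protocols, a full-length cDNA kit for low input and tagmentation were used, which do not keep strand. The authors deposited raw counts per Entrez gene with a gene length, counted with featureCounts on mm10 per the submitters' processing notes (aligner, annotation and versions: not given in the sources used here). One series-wide table, whose 8 columns match no sample label, was not used.

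Symbols came from RefSeq genes on GRCm38.p6 (25275 of 27179 identifiers), promoters from RefSeq and exon overlaps from GENCODE. Genes reaching 1 CPM in 2 or more libraries were kept (18163). All 10 members passed, each in 7 or 8 libraries. Counts were scaled by TMM and fitted with 1 mean per group by edgeR 4.0.16 (robust quasi-likelihood, 4 residual degrees of freedom) in R 4.3.3. Calls are at a two-sided Benjamini-Hochberg adjusted p under 0.05. Each KO group holds 1 library, which is assumed to vary like the WT libraries. The SE is the absolute log2 fold change over the square root of F, and 95% intervals use the fit's degrees of freedom. A count of 0 allows up to 3 counts. Reads carry no molecular identifiers, so Poisson intervals and limits cover counting error only. The script was tested on simulated data. WT replicates differed by more than sampling noise (chi-square over degrees of freedom from 22.5 to 87).

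The members and lists were chosen with earlier results of these data known. Named genes were all members, Mcl1, up to 3 called genes per pathway list and comparison with the largest fold change (average log2 CPM 0 or more), and the 8 genes most like the members' mean (log2 CPM with a prior count of 2), of which 1 is not reported here. Other genes named, such as Pou2f3, Sox9, Itpr3, Ltc4s, Hpgds, Slc5a7 and Slc18a3, were chosen after their values were seen. The alternatives were RLE factors, library totals, other filters, DESeq2 1.42.0, limma-voom 3.58.1, leaving out libraries and a replicate block.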

Additional observations from a re-analysis of the deposited data

Results flagged for a closer look

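The KO effect in mTECs minus that in cTECs (log2 scale) was called by its own edgeR test for 9 genes. It was 3.6 for Dclk1, 4.94 for Il25, 8.88 for Avil, 4.50 for Alox5, 5.87 for Alox5ap and 8.74 for Sh2d6. For Rgs13, Hepacam2 and Chat the fitted differences were 13.89, 13.41 and 12.01, values that depend on the prior count because KO cTEC had 0 counts.

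Among the 4 WT cTEC libraries, WT cTEC 3 lay far below the other 3 for Dclk1 (146 CPM) and for Hepacam2 (120 CPM). Its gap to the nearest library, as a share of the group's range, exceeded Dixon's critical value for 4 samples. Chance gives such a gap in about 1 in 20 groups, and 10 genes were examined. Hepacam2 spanned no more than 120 to 132 CPM in that group.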

How the results depend on the processing

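The count of the 10 genes called in KO against WT cTECs stayed at 10 in all settings but limma-voom, where it was 6. For the difference of KO effects it was 9, from 8 to 10 when each library was left out in turn, and 1 in limma-voom. In KO against WT mTECs it was 0 in every setting. In WT mTECs against WT cTECs it was 4, and from 0 to 6 when each library was left out in turn, with 0 without WT mTEC 1 or 2. In WT mTECs against WT cTECs, Alox5ap turned to 0.03 with RLE factors, with a CPM minimum of 5 and in DESeq2, and ran from -0.3 to 0.21 when each library was left out in turn. Hepacam2 turned to -0.02 with library totals, -0.06 with WT cTEC 1 alone and -0.06 with the replicate block, and ran from -0.13 to 0.18 when each library was left out in turn. In KO against WT mTECs Alox5 was 0 with RLE factors and 0.01 in DESeq2. With each library left out in turn, Alox5 ran from -0.2 to 0.18, Alox5ap from -0.46 to 0.05 and Ptgs1 from -0.03 to 0.2. None of these reached the threshold, and the cause was not tested.

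Both WT groups have libraries numbered 1 and 2. Same-numbered libraries did not deviate together from their group means (correlations of -0.146 and -0.0194), and the numbers were not taken as pairs. With 2 WT mTEC libraries the deviations of 1 mirror those of the other, so this check cannot show that the numbers are not pairs. A fit of WT libraries 1 and 2 with the number as a replicate block called 5 of the 10 genes, adding Ptgs1 (log2 fold change -0.93, adjusted p = 0.0475). The other comparisons could not be blocked because each KO group holds 1 library.

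Counts over all genes moved more. In WT mTECs against WT cTECs 4912 genes were called, 1162 without WT mTEC 1, 603 without WT mTEC 2, 3176 without WT cTEC 3 and 2094 with the replicate block. In KO against WT cTECs 3179 were called, 1726 in limma-voom and 6078 with WT cTEC 1 alone. The difference of KO effects gave 1236, and 649 without WT mTEC 1, 668 without WT mTEC 2, 4110 with WT cTEC 1 alone, 104 in limma-voom and 2050 in DESeq2. KO against WT mTECs gave 0, and 7 without WT cTEC 1, 734 with WT cTEC 1 alone and 139 in DESeq2. Depth limits Rgs13, Hepacam2 and Chat in KO cTEC most, with 0 counts, and then Sh2d6, Il25 and Alox5ap, with 3, 8 and 13 counts.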
